A study of Mus musculus with 7 samples.

Results

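The comparison set both high-fat diets together against the control diet in Bmi1-marked crypt cells of the mouse intestine, and asked which genes lay on the same side of the controls in every high-fat library. Its members were all 7 of the 7 libraries of the series, chosen by their labels: 3 libraries from mice fed NWD1 and 2 from mice fed NWD2, pooled as 5 high-fat libraries, against 2 libraries from mice fed AIN76A. All libraries came from BmicreERT2, Rosa26RFP mice, controls included, that ate their purified diet from weaning to 3 months of age. Of the 7 libraries, 6 are labelled male, and NWD1 replicate 2 is labelled female. Crypt cells were sorted for high red fluorescence, for the epithelial protein Epcam and against the leukocyte protein CD45, and were collected in bulk. The labels do not tie libraries to animals, and p-values therefore measure only the spread between these libraries. They also give no schedule for activating the Cre enzyme.

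AIN76A is a purified rodent diet. NWD1 is a Western-style purified diet that is richer in fat than AIN76A and poorer in calcium, vitamin D3 and methyl-donor nutrients, and NWD2 is the version of it with calcium and vitamin D3 raised. Bmi1 encodes a Polycomb protein that maintains gene silencing. In the crypt its promoter is used to mark a slowly dividing population described as reserve stem cells, and Cre-driven fluorescence also stays on in the descendants of a marked cell. Crypts also hold Paneth cells, which secrete lysozyme and defensins at the crypt base, goblet cells, which secrete mucus, hormone-releasing enteroendocrine cells, chemosensory tuft cells and absorptive enterocytes.

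Depth ran from 14034315 counts in NWD1 replicate 3 to 77959407 in NWD2 replicate 2. Levels are CPM, counts relative to the library total with trimmed-mean (TMM) scaling, which compare libraries, not genes of different length. Epcam was at 510 and 986 CPM in the 2 AIN76A libraries and at 1338, 1182, 1103, 838 and 225 CPM on NWD1 replicates 1 to 3 and NWD2 replicates 1 and 2. The CD45 gene Ptprc was at 1.17 to 5.75 CPM, and Bmi1 itself at 2.41 and 3.72 CPM in the controls and 2.12 to 5.24 CPM in the high-fat libraries. The crypt base stem cell gene Lgr5 was at 3.01 and 11.6 CPM in the controls and 4.37 to 12.4 CPM in the high-fat libraries. None of these 4 genes separated the groups. NWD2 replicate 2, which had the lowest Epcam level, stood apart on the first principal component (27.3% of the variance). Both AIN76A libraries, NWD1 replicate 1 and NWD1 replicate 2 carried one i5 sequencing index and the other 3 libraries another, so that the second index held high-fat libraries only. The first index held no NWD2 library, so values given below for its libraries alone compare NWD1 with AIN76A.

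No gene was called. Of 14626 genes tested with the edgeR quasi-likelihood test, 0 (0%) had a Benjamini-Hochberg adjusted p under 0.05, and the smallest adjusted p was 0.969. At an unadjusted p under 0.05 there were 308 genes (2.11%), of which 171 (1.17%) were higher and 137 (0.937%) lower on the high-fat diets. Of all log2 fold changes, 53.4% were above 0 and 46.6% below, with a median of 0.03. DESeq2 called 4 genes, and the limma voom test called 0. With 5 libraries against 2, the smallest two-sided p that exact permutation can give for one gene is 0.0952, so none was run. The words higher and lower below give the side on which values lay, not a called difference.

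Counted library by library, 362 genes (2.48%) were higher in all 5 high-fat libraries than in both controls, and 415 genes (2.84%) were lower in all 5. If the order of the libraries were random, a gene would lie beyond both controls, on either side, with a probability of 0.0952. The 2 shares together lay below that, and the counts were not tested. Among the 10385 genes whose average log2 CPM was 1 or more, the counts were 200 (1.93%) and 222 (2.14%). Both controls reached the filter level of 0.171 CPM in 13312 genes, and 277 of these (2.08%) were higher in all 5. The rest of the 362 passed the filter with a control below that level, which favours genes higher in the high-fat libraries. The share of 2.48% given beside lists below includes them. The margins were mostly narrow. The gap between the nearest high-fat and the nearest control library, on log2 CPM with a prior count of 2, reached 0.5 for 46 of the higher and 18 of the lower genes. It reached 1 for 8 higher genes and 1 lower gene. The 2 controls lay closer together in these genes than elsewhere: the median ratio of the higher to the lower control was 1.14 for the higher genes and 1.17 for the lower genes, against 1.38 over all genes tested. The choice of genes favours this, since values lie beyond a narrow control range more easily. Where exactly 4 of the 5 high-fat libraries lay above both controls (1410 genes), the exception was NWD1 replicate 1 in 37.4% and NWD2 replicate 2 in 36.7%. Where exactly 4 lay below (1246 genes), NWD1 replicate 1 was the exception in 34.9% and NWD2 replicate 2 in 23.4%. Leaving out a library moves these counts by construction, most of all with AIN76A replicate 2, without which 2487 genes were higher and 3357 lower in all 5. The counts were 1226 and 1265 without AIN76A replicate 1, 883 and 838 without NWD1 replicate 1, 874 and 679 without NWD2 replicate 2, and 653 lower without NWD2 replicate 1.

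**Figure D1:**
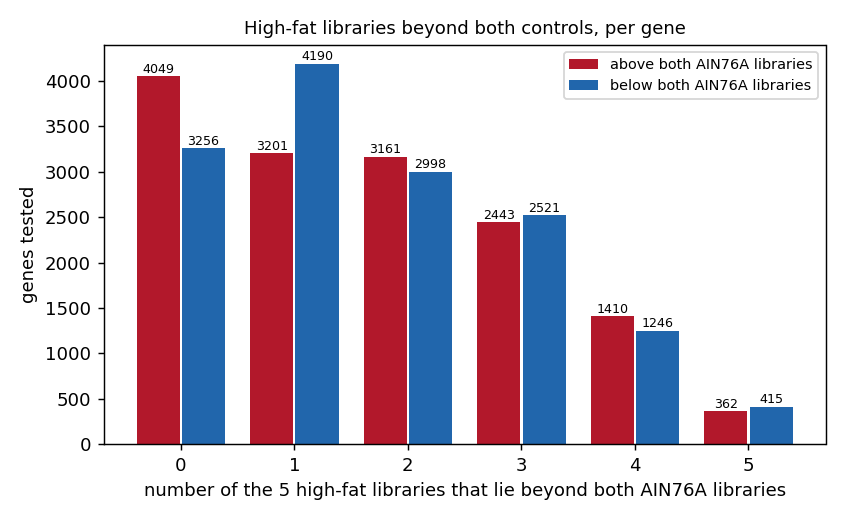
Number of genes tested (y axis) by how many of the 5 high-fat libraries lay above (red) or below (blue) both AIN76A libraries (x axis). At the right end, 362 genes were above and 415 below in all 5.

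Among the 200 more abundant genes higher in all 5, the 12 with the smallest unadjusted p had log2 fold changes of 0.77 to 1.70. The 12 chosen likewise among the 222 lower ones had log2 fold changes of -1.65 to -0.94. Standard errors were 0.27 to 0.52 and unadjusted p-values 0.00226 to 0.0266, and each of the 24 had an edgeR adjusted p of 0.969. Since non-overlap and a small p chose these genes, their separation is a description.

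The higher genes include a transporter, a brush-border enzyme and a receptor. Slc16a9, a monocarboxylate and carnitine transporter, was at 5.37 and 7.18 CPM in the controls, at 14.03, 15.2 and 24.8 CPM on NWD1 and at 11.2 and 28.2 CPM on NWD2. Every high-fat library was more than 1.5 times the higher control, and the log2 fold change was 1.57 ± 0.42 (SE). Akp3, an alkaline phosphatase of the enterocyte brush border, was at 653 and 770 CPM in the controls, 1163, 2470 and 1487 CPM on NWD1 and 945 and 2447 CPM on NWD2. Its log2 fold change was 1.26 ± 0.44, and the lowest high-fat value was that of NWD2 replicate 1. Adora2b, an adenosine receptor, was at 8.89 and 13.3 CPM in the controls, and NWD1 replicate 1 lay just above them at 13.97 CPM. Its other high-fat values were 26.4 and 18.3 CPM on NWD1 and 17.6 and 29.7 CPM on NWD2.

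Per2, a repressor in the circadian clock, had the largest log2 fold change of the 12, 1.70 ± 0.52 (SE). It was at 3.29 and 3.70 CPM in the controls, 5.69, 20.8 and 6.24 CPM on NWD1 and 13.0 and 10.9 CPM on NWD2. NWD1 replicate 2 was the highest, and NWD1 replicate 1 the nearest to the controls. The clock list had 19 tested members, of which 16 had a log2 fold change above 0 and 3 below. Per2 was the only member that separated the groups (5.26%, against 2.48% of all genes on the higher side). The list's median log2 fold change was 0.56, and the list level of NWD2 replicate 2 lay between the controls. Without AIN76A replicate 2 the median was 1.11, and without NWD1 replicate 1 it was 0.34. The labels used here give no time of day for tissue collection.

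Another 6 higher genes had smaller log2 fold changes or lower levels. Eif4enif1, a carrier of the translation factor eIF4E, was at 11.9 and 12.7 CPM in the controls and between 17.1 and 26.2 CPM in the high-fat libraries (log2 fold change 0.77 ± 0.27, SE). Zfp236, a zinc finger gene, was at 4.32 and 3.17 CPM in the controls and 6.21 to 9.79 CPM in the high-fat libraries. Fras1, an extracellular matrix gene, was at 2.03 and 4.33 CPM against 5.28 to 10.3 CPM. Camk2b, a calcium/calmodulin-dependent kinase subunit, was at 6.52 and 12.1 CPM against 13.2 to 22.1 CPM, so that its nearest values differed by little. Zfp385b (log2 fold change 0.86) and Fbxo44, of an F-box ubiquitin ligase (1.23), were below 6.5 CPM in every library.

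The other higher genes, Cyp3a11 and Slc30a10, belong to the list of vitamin D receptor and calcium transport genes. Slc30a10, a manganese exporter of the cell surface, was at 16.5 and 18.7 CPM in the controls, 32.5, 86.3 and 53.8 CPM on NWD1 and 22.1 and 44.1 CPM on NWD2 (log2 fold change 1.44 ± 0.47, SE). Cyp3a11, a cytochrome P450 that oxidises drugs and steroids, was at 320 and 392 CPM in the controls and at 400, 1012 and 889 CPM on NWD1 and 834 and 1421 CPM on NWD2 (1.36 ± 0.44). NWD1 replicate 1 lay only just above the controls for Cyp3a11, and NWD2 replicate 1 was the nearest for Slc30a10. Reads of Cyp3a11 may be shared with near-identical Cyp3a genes, so its count is uncertain.

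Of 23 genes on that list 17 were tested, with 12 log2 fold changes above 0 and 5 below, a median of 0.22, and 2 members (11.8%) on each side that separated the groups, against 2.48% of all genes on the higher and 2.84% on the lower side. The median was 0.11 without AIN76A replicate 1, 0.47 without AIN76A replicate 2, 0.35 without NWD2 replicate 1, 0.092 without NWD2 replicate 2 and 0.0036 with a term for the i5 index. Cldn2, a pore-forming claudin of the tight junction, was lower: it was at 143 and 140 CPM in the controls, 126, 99.1 and 74.7 CPM on NWD1 and 93.9 and 103 CPM on NWD2 (log2 fold change -0.51 ± 0.24, SE). Casr, the calcium-sensing receptor, was below 0.4 CPM in every library and at 0 in 2 of them. The vitamin D receptor pairs with the retinoid X receptor on repeats of a 6-base half-site, so the 250 bases before the transcription start of the 3 members above that were well detected are shown, with AGGTCA or its reverse complement TGACCT in capitals where present. The sequences are from RefSeq on GRCm38.p6, which is not the build of the counts.
Slc30a10, chr1:185454598-185454847, plus strand: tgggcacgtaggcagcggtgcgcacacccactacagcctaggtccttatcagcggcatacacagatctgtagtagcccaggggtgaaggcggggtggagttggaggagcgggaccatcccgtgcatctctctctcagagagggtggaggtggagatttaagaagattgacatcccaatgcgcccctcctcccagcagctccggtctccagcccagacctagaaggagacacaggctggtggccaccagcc
Cyp3a11, chr5:145879855-145880104, minus strand: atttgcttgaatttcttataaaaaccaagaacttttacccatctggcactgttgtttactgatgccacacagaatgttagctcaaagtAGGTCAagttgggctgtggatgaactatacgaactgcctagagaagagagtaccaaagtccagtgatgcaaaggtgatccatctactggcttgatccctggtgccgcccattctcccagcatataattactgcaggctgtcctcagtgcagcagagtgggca
Cldn2, chrX:139800558-139800807, plus strand: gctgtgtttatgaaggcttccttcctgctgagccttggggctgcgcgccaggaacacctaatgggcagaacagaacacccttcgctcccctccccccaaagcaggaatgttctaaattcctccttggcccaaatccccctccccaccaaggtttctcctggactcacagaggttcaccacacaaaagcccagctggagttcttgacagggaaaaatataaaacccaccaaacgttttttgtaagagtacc
The Cyp3a11 window held 1 match and the other windows 0. Of 27025 RefSeq promoter windows of this length, 3740 (13.8%) held at least 1 match on either strand. A match is a run of letters, not a measured binding site.

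Tff3, a trefoil peptide of goblet cell mucus, was at 4180 and 1387 CPM in the controls, 1113, 1091 and 1091 CPM on NWD1 and 1280 and 1225 CPM on NWD2. Agr2, a protein disulfide isomerase needed for mucin folding, was at 1790 and 718 CPM in the controls, 564, 520 and 690 CPM on NWD1 and 451 and 663 CPM on NWD2. In both genes AIN76A replicate 1 was more than 2 times every other library, and AIN76A replicate 2 lay just above the high-fat values. The log2 fold changes were -1.26 ± 0.36 (SE) for Tff3 and -1.12 ± 0.34 for Agr2.

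Klk1, a kallikrein protease, was at 254 and 120 CPM in the controls and between 88.0 and 107 CPM in the high-fat libraries. Tpsg1, a tryptase-family protease gene, was at 57.6 and 22.5 CPM against 16.3 to 22.2 CPM, and its nearest values almost touched. Ramp1, a receptor activity-modifying protein of the calcitonin receptor family, was at 52.9 and 25.1 CPM against 15.5 to 20.2 CPM. Fxyd3, a regulator of the sodium pump, was at 29.98 and 11.4 CPM against 7.64 to 9.83 CPM. These 4 genes again had AIN76A replicate 1 far above the other control.

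Clps, which encodes the pancreatic lipase cofactor colipase, was at 836 and 464 CPM in the controls, 343, 262 and 268 CPM on NWD1 and 169 and 355 CPM on NWD2. Its log2 fold change was -1.22 ± 0.33 (SE). The acinar trypsinogen gene Prss2 had 0 counts in every library, and the source of the Clps transcripts was not tested. Pdia2, a protein disulfide isomerase, was at 23.9 and 13.0 CPM in the controls and 4.71 to 11.2 CPM in the high-fat libraries. Tmed6, a cargo protein of the early secretory pathway, was at 40.3 and 22.2 CPM against 11.01 to 19.6 CPM. Hpd, an enzyme of tyrosine breakdown, was at 42.7 and 22.1 CPM against 13.1 to 20.9 CPM.

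Ccl20, a chemokine that attracts CCR6-bearing lymphocytes and dendritic cells, had the smallest unadjusted p of the 12 (0.00226; edgeR adjusted p 0.969). It was at 6.61 and 18.2 CPM in the controls, 3.12, 2.75 and 5.38 CPM on NWD1 and 5.07 and 3.59 CPM on NWD2, and its log2 fold change was -1.65 ± 0.41 (SE). Here AIN76A replicate 2, not replicate 1, was the high control. Defa17, the other lower gene, is described with the Paneth cell list. Because the 24 genes were chosen for values beyond both controls, only the sizes of their differences, not the signs, bear comparison when a library is left out. Without AIN76A replicate 1 the 12 lower genes had a median log2 fold change of -0.43, with a range of -2.20 to -0.26, against -1.17 with all libraries. Without AIN76A replicate 2 their median was -1.60, with a range of -1.85 to -0.73, and the value nearest to 0 was that of Ccl20, which was -1.65 with all libraries. Among the 4 libraries that carried the i5 index of the controls, the 12 higher genes were at 0.74 to 1.92 and the 12 lower genes at -2.07 to -0.90.

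**Figure D2:**
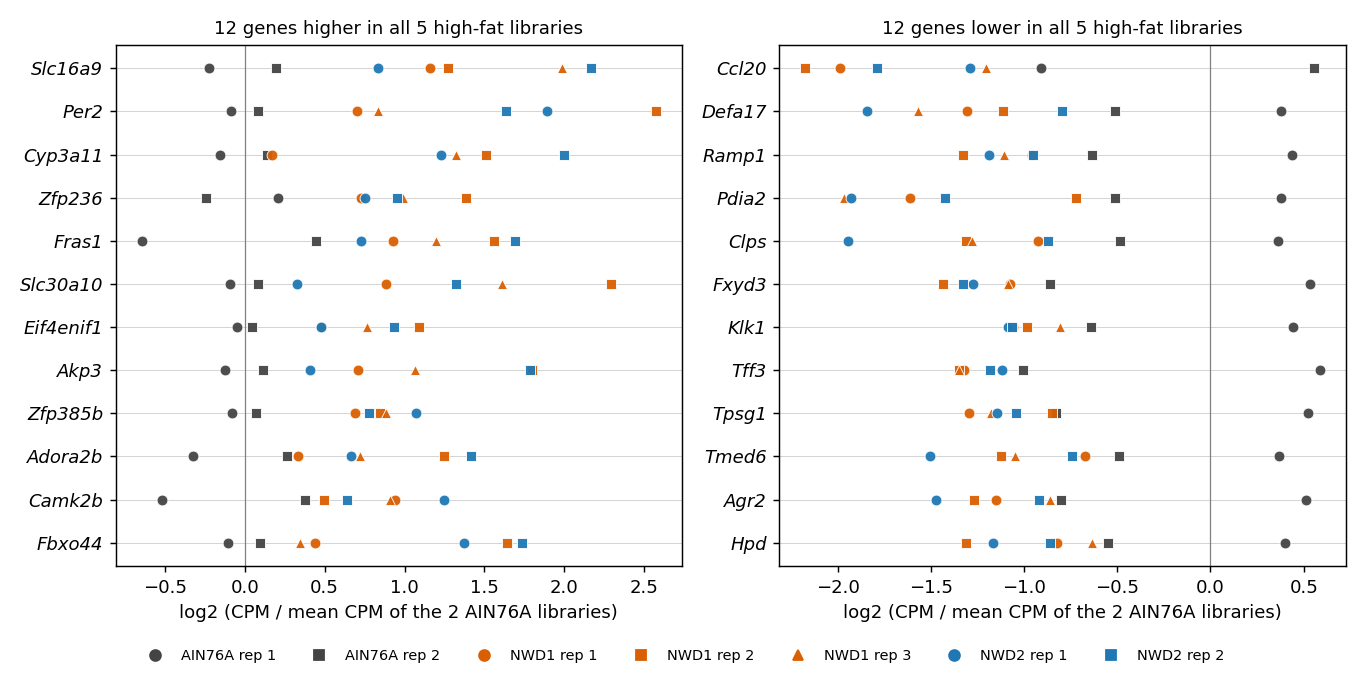
CPM of each library relative to the mean of the 2 AIN76A libraries (x axis, log2) for the 12 higher genes (left) and 12 lower genes (right); grey is AIN76A, orange NWD1, blue NWD2, and the marker shape gives the replicate. On the left most grey pairs sit close together, and on the right AIN76A replicate 1 lies far above replicate 2 for 11 of the 12 genes, with Ccl20 the other way round.

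The 2 diets were also set side by side, both against the same 2 AIN76A libraries. NWD1 replicate 3 was counted as NWD1, as its title states, although its diet is less certain. The log2 fold changes of the 12 higher genes were 0.80 to 1.71 for NWD1 and 0.72 to 1.77 for NWD2. Those of the 12 lower genes were -1.74 to -0.90 for NWD1 and -1.66 to -1.01 for NWD2. In the direct test of NWD2 against NWD1 with edgeR, the 24 genes differed by -0.80 to 0.61 on the log2 scale, with adjusted p-values of 0.698 to 0.9997. The 95% intervals of these differences reached from as low as -1.78 to as high as 1.62, so differences of more than 2-fold between the diets were not excluded for some of these genes. Over all genes, 0 of 14626 (0%) were called between NWD2 and NWD1, with a smallest adjusted p of 0.472.

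Goblet and Paneth cell lists held the largest shares of members lower in all 5, among the lists drawn in the plot of list shares. All 25 goblet cell genes were tested, and 7 of them (28.0%) were lower in all 5 high-fat libraries, against 2.84% of all genes tested. None was higher in all 5, 22 of the 25 log2 fold changes were below 0, and the median was -0.73. The 7 were Tff3, Agr2, Klk1, Ccl6, Tpsg1, Ramp1 and Pdia5, with log2 fold changes of -1.26 to -0.76, and 5 of them are among the 12 lower genes above. Ccl6, a chemokine gene, was at 882 and 435 CPM in the controls and 276 to 398 CPM in the high-fat libraries. The goblet cell marker Muc2 did not separate the groups. It was at 708 and 434 CPM in the controls, 221, 612 and 422 CPM on NWD1 and 356 and 344 CPM on NWD2. Its value in NWD1 replicate 2 lay between the controls. The list level (mean log2 CPM over members, minus the mean of the controls) was 0.38 and -0.38 in AIN76A replicates 1 and 2, and NWD1 replicate 3, at -0.30, lay between them. Without AIN76A replicate 1 the median log2 fold change was -0.23, and without AIN76A replicate 2 it was -1.04. In bulk RNA, fewer cells of a type and less RNA per cell cannot be told apart.

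Of 24 Paneth cell genes 23 were tested, and 6 of them (26.1%) were lower in all 5, against 2.84% of all genes tested. The 6 were Lyz1, Itln1, Defa17, Defa20, Defa24 and Defa26. Lyz1, the Paneth cell lysozyme, was at 13564 and 10405 CPM in the controls, 8143, 4921 and 8079 CPM on NWD1 and 4122 and 7978 CPM on NWD2 (log2 fold change -0.85 ± 0.35, SE). Itln1, a lectin that binds microbial sugars, was at 7215 and 4561 CPM in the controls, 2867, 2389 and 3454 CPM on NWD1 and 2014 and 3840 CPM on NWD2 (-1.02 ± 0.33). In both genes NWD2 replicate 1 was the lowest library. The alpha-defensins are antimicrobial peptides whose genes are near-identical copies, so their separate counts are uncertain. Defa24 was at 16931 and 11008 CPM in the controls, 7973, 6507 and 6779 CPM on NWD1 and 4167 and 8690 CPM on NWD2. Defa17 was at 956 and 515 CPM in the controls, 297, 340 and 248 CPM on NWD1 and 205 and 423 CPM on NWD2.

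Over the Paneth list, 18 log2 fold changes were below 0 and 5 above, with a median of -0.67 and a range of -1.32 to 2.27. The largest rise thus exceeded the largest fall in size. The list level was 0.28 and -0.28 in the controls and -0.64, -0.59, -0.91, -0.63 and -0.58 in the high-fat libraries, below both controls in all 5. The summed CPM of the list did not separate the groups: it was 32676 and 47188 CPM in the controls and 18922 to 52749 CPM in the high-fat libraries, with NWD2 replicate 1 the highest. The median was -0.33 without AIN76A replicate 1.

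Cell cycle genes formed the largest group by number. All 57 on the list were tested, and 12 (21.1%) were lower in all 5, against 2.84% of all genes tested. On the higher side there were 0, against 2.48%, and the median log2 fold change was -0.31. The 12 were the mitotic genes Ccnb1, Ccnb2, Cdk1, Cdc20, Aurka, Aurkb, Plk1, Ube2c, Cenpf and Nusap1 together with Top2a and Fen1 of DNA replication and topology, with log2 fold changes of -0.76 to -0.42. Ccnb1, the B-type cyclin that drives entry into mitosis, was at 54.2 and 61.0 CPM in the controls, 41.3, 39.1 and 26.7 CPM on NWD1 and 39.2 and 23.9 CPM on NWD2 (-0.76 ± 0.26, SE). Ube2c, a ubiquitin-conjugating enzyme of mitotic exit, was at 113 and 92.3 CPM in the controls, 79.8, 88.8 and 38.6 CPM on NWD1 and 72.6 and 34.2 CPM on NWD2. Cdc20, an activator of the anaphase-promoting complex, was at 58.9 and 60.5 CPM in the controls, 50.6, 54.4 and 27.9 CPM on NWD1 and 47.4 and 14.7 CPM on NWD2. Top2a, the topoisomerase of replicating cells, was at 51.0 and 74.3 CPM in the controls and between 43.8 and 50.9 CPM in the high-fat libraries, a gap close to 0.

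In these cell cycle genes NWD1 replicate 3 and NWD2 replicate 2 were mostly the lowest libraries, and the other 3 lay close under the controls. The list level shows the same order: 0.07, -0.07 and 0.05 in NWD1 replicates 1 and 2 and NWD2 replicate 1, -0.57 in NWD1 replicate 3 and -0.84 in NWD2 replicate 2, against -0.22 and 0.22 in the controls. The groups thus overlapped on the level of the whole list. Without AIN76A replicate 2 the median log2 fold change was -0.04, without NWD2 replicate 2 it was -0.20, and among the libraries with the controls' i5 index it was -0.14.

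**Figure D3:**
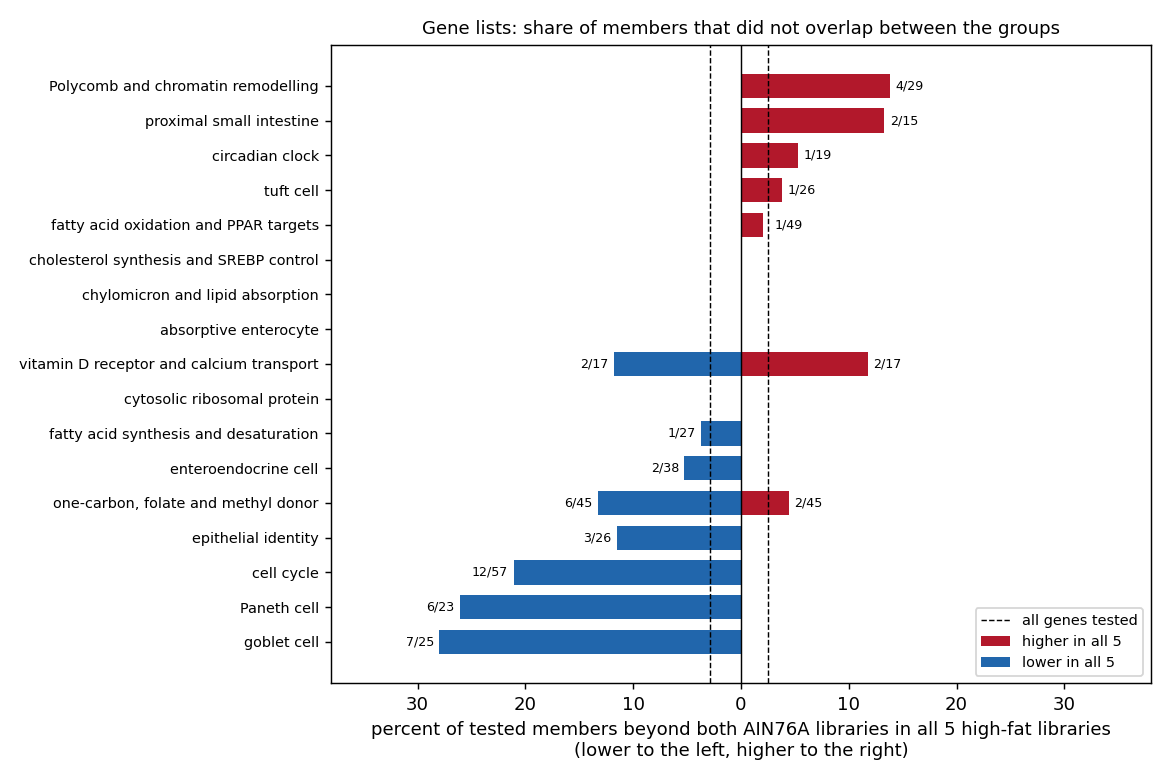
Share of tested list members (x axis, percent) that were lower (blue, left) or higher (red, right) in all 5 high-fat libraries than in both controls, with counts beside the bars and dashed lines at the shares over all genes tested (2.84% and 2.48%). Goblet cell, Paneth cell and cell cycle lists extend furthest to the left.

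Ribosomal protein genes showed how a list can lie on one side without separating the groups. All 76 cytosolic ribosomal protein genes had a log2 fold change below 0, with a median of -0.62, yet 0 of the 76 was lower in all 5 libraries. The list level was 0.41 and -0.41 in the controls, 0.02 in NWD1 replicate 1, -0.04 in NWD2 replicate 1 and -1.2 to -1.02 in the other 3 high-fat libraries. Many of these genes have near-identical pseudogenes, so single counts are uncertain. Rps3, a protein of the small subunit, was at 490 and 270 CPM in the controls, 346, 117 and 175 CPM on NWD1 and 357 and 202 CPM on NWD2. The list's median was -0.14 without AIN76A replicate 1 and -0.98 without AIN76A replicate 2. Oxidative phosphorylation genes (74 of 76 below 0, median -0.40) and mitochondrial ribosomal protein genes (46 of 49 below 0, median -0.42) likewise held 0 members lower in all 5.

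Enteroendocrine and tuft cell lists were split by diet within the pooled group. Of 38 enteroendocrine genes, 29 had a log2 fold change below 0, but the median was -0.02 for NWD1 and -1.72 for NWD2 against the same controls. Scg2 and Scg5, secretory granule proteins, were the 2 members lower in all 5 (5.26%, against 2.84% of all genes tested). Scg2 was at 25.9 and 25.6 CPM in the controls, 19.8, 8.09 and 14.9 CPM on NWD1 and 4.95 and 8.35 CPM on NWD2. The granule gene Chgb was lower than both controls in NWD2 only, at 176 and 249 CPM, with 530, 762 and 670 CPM on NWD1 and 529 and 883 CPM in the controls. The hormone gene Gip was at 613 and 489 CPM in the controls, 631, 326 and 378 CPM on NWD1 and 85.5 and 123 CPM on NWD2. NWD1 replicates 2 and 3 thus also lay below both controls for Gip. The enteroendocrine list level on NWD1 was 0.18, 0.29 and -0.37, against -0.18 and 0.18 in the controls, so NWD1 replicate 3 lay below both. Of 26 tuft cell genes 22 were below 0, with medians of 0.03 for NWD1 and -1.72 for NWD2. The tuft cell list level on NWD1 was 0.81, -0.57 and -0.13, against 0.45 and -0.45 in the controls, so NWD1 replicate 2 lay below both. The taste receptor Tas1r3 was the only member that separated the groups (3.85%, against 2.48% of all genes on the higher side). It was higher, at 0.41 and 0.48 CPM in the controls and 0.56 to 1.2 CPM in the high-fat libraries. Without AIN76A replicate 1 the tuft cell median turned to 0.26. Among libraries with the controls' i5 index the tuft cell median was 0.11 and the enteroendocrine median 0.16. No NWD2 library carried that index, so these 2 values compare NWD1 with AIN76A only. The part of the index in the difference between the diets was not tested.

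Polycomb and chromatin remodelling genes lay to the higher side. Of 29 tested, 22 log2 fold changes were above 0 with a median of 0.25, and 4 genes (13.8%) were higher in all 5, against 2.48% of all genes tested. Phc1, a Polycomb complex partner of Bmi1, was at 2.39 and 3.46 CPM in the controls, 5.15, 7.18 and 4.91 CPM on NWD1 and 5.37 and 3.85 CPM on NWD2 (0.86 ± 0.35, SE). Phc2, its paralog, was at 9.94 and 9.58 CPM in the controls and 10.2 to 12.8 CPM in the high-fat libraries. Rybp, of a variant Polycomb complex, was at 1.80 and 1.79 CPM against 2.24 to 3.47 CPM. Chd3, a chromatin remodeller, was at 7.67 and 8.68 CPM in the controls, 16.5, 46.4 and 20.3 CPM on NWD1 and 11.1 and 12.2 CPM on NWD2, with NWD1 replicate 2 far above the rest. NWD2 replicate 2 was below both controls on the list level, at -0.22 against -0.11 and 0.11, and the median was 0.12 without AIN76A replicate 1.

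The one-carbon, folate and methyl-donor list, which bears on nutrients that NWD1 lowers, had members on both sides. Of 49 genes 45 were tested, and the median log2 fold change was -0.03. There were 2 members (4.44%) higher in all 5, against 2.48% of all genes tested, and 6 (13.3%) lower in all 5, against 2.84%. Chka, the kinase that commits choline to phosphatidylcholine, was higher in all 5: it was at 27.2 and 32.1 CPM in the controls, 59.9, 170 and 70.4 CPM on NWD1 and 47.6 and 34.2 CPM on NWD2 (1.37 ± 0.56, SE). Ahcyl1, related to the enzyme that clears S-adenosylhomocysteine, was at 106 and 112 CPM in the controls and 129 to 204 CPM in the high-fat libraries. The 6 lower genes were Pemt, which methylates phosphatidylethanolamine, Cbs, which takes homocysteine towards cysteine, Psat1 and Psph of serine synthesis, the choline transporter gene Slc44a2 and Mtfmt, which formylates mitochondrial initiator tRNA. Their log2 fold changes were -0.66 to -0.29. Cbs was at 1.87 and 1.57 CPM in the controls, 1.28, 1.18 and 0.996 CPM on NWD1 and 1.003 and 0.965 CPM on NWD2. Psat1 was at 16.9 and 19.2 CPM in the controls, 14.4, 14.03 and 15.9 CPM on NWD1 and 11.9 and 7.37 CPM on NWD2. The gap of Psph was close to 0, with 8.34 CPM in AIN76A replicate 2 and 8.34 CPM on NWD2 replicate 1.

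Genes of fat handling, the nutrient both diets raise, mostly did not separate the groups. Of 28 chylomicron and lipid absorption genes 24 had a log2 fold change above 0, with a median of 0.32, and 0 were higher in all 5. Apoa4, an apolipoprotein of chylomicrons, was at 4497 and 7466 CPM in the controls, 5563, 14046 and 4662 CPM on NWD1 and 5623 and 19947 CPM on NWD2, so that 2 high-fat libraries were high and the other 3 lay between the controls. Dgat2, which forms triglyceride, was at 301 and 558 CPM in the controls and 526 to 936 CPM in the high-fat libraries, and NWD2 replicate 2 was the library that overlapped. Npc1l1, the cholesterol uptake protein, was at 488 and 676 CPM in the controls and above both in 4 of the 5, with NWD1 replicate 1 below both at 361 CPM. The list's median was 0.095 without NWD2 replicate 2, 0.12 without AIN76A replicate 1 and 0.51 without AIN76A replicate 2.

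Of 28 absorptive enterocyte genes 25 were above 0 and 0 separated the groups, with a median of 0.34 that was 0.089 without NWD2 replicate 2, 0.56 without AIN76A replicate 2 and 0.056 among the libraries with the i5 index of the controls. Fatty acid oxidation and PPAR target genes had 1 member of 49 higher in all 5, Pex11a, a peroxisome gene, at 66.2 and 72.2 CPM in the controls and 73.4 to 108 CPM in the high-fat libraries. The share, 2.04%, was near that of all genes. Of 27 fatty acid synthesis genes 1 (3.7%, against 2.84% of all genes tested) was lower in all 5. This was Fads3, a desaturase-family gene, at 5.42 and 5.01 CPM against 3.65 to 4.84 CPM. None of 35 cholesterol synthesis genes separated the groups, and their median was 0.02, with -0.23 for NWD1 and 0.26 for NWD2 against the same controls. It was -0.19 without NWD2 replicate 2, -0.012 without AIN76A replicate 2, -0.048 without NWD2 replicate 1 and -0.24 among the libraries with the i5 index of the controls. Of 15 proximal small intestine genes 2 (13.3%) were higher in all 5, against 2.48% of all genes tested: Cyp3a11 and the transcription factor gene Onecut2, which was at 47.0 and 42.8 CPM in the controls and 51.2 to 87.3 CPM in the high-fat libraries.

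**Figure D4:**
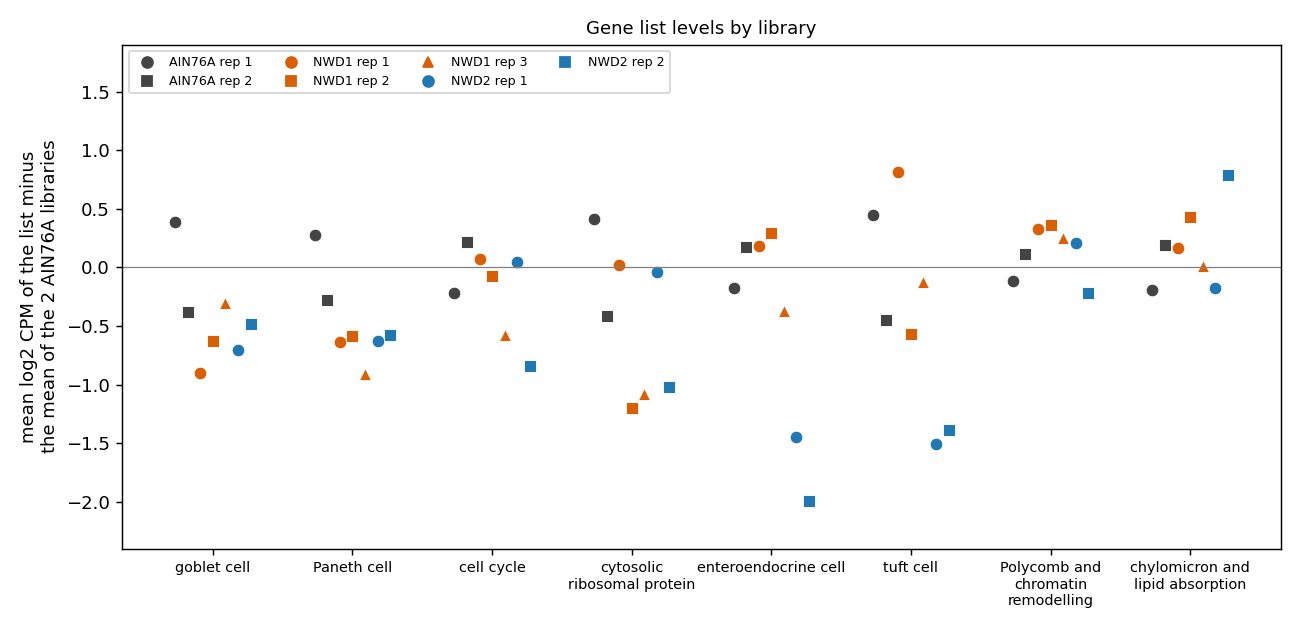
List level of 8 gene lists in each library (y axis, mean log2 CPM over tested members minus the mean of the 2 AIN76A libraries); colours and shapes stand for diet and replicate as in the plot of named genes. The Paneth cell level was below both controls in all 5 high-fat libraries, while enteroendocrine and tuft cell levels were far below the controls in the 2 NWD2 libraries alone. NWD1 replicate 3 (enteroendocrine) and NWD1 replicate 2 (tuft) lay below both controls by less.

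Epithelial identity genes were tested as a check on the sorted cells: 26 were tested, 15 were above 0 and 11 below, and 3 (11.5%) were lower in all 5, against 2.84% of all genes tested. These were Cldn2, Cldn3, another claudin, and Krt7, a keratin at 175 and 107 CPM in the controls and 61.4 to 104 CPM in the high-fat libraries. Leukocyte genes stood close to the limit of detection. Of 46 on the list 37 were tested, but only 17 of these reached 0.171 CPM, the level the filter asks for, in both controls. The other 20 passed the filter with a control below that level, which favours members that are higher in the high-fat libraries, so they are not counted here. Of the 17, 4 were higher in all 5 high-fat libraries, against 2.08% of all genes that reached this level in both controls: Cd7, Cd52, Lck and Ccl5, genes of T and other lymphoid cells. Lck was at 0.29 and 0.31 CPM in the controls, 1.2, 0.37 and 0.996 CPM on NWD1 and 0.70 and 0.80 CPM on NWD2. The summed CPM of the list overlapped, with 47.6 and 67.3 CPM in the controls and 43.3 to 98.6 CPM in the high-fat libraries. The T cell receptor gene Cd3e had 8 and 5 counts in the controls and 5 to 56 in the high-fat libraries, and the macrophage gene Csf1r at most 15. The part of these transcripts in the other differences was not tested.

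In the other 25 lists counted, at most 2 members were higher in all 5 and at most 2 were lower, and 12 of the 25 lists held none. Over all genes tested the shares were 2.48% higher and 2.84% lower. The largest shares came from short lists: 1 of 3 pancreas and mesentery fat genes (33.3%, lower) and 1 of 8 reserve stem cell genes (12.5%, higher). Of 10 stromal, endothelial, muscle and glial genes 1 (10%) was higher. Of 27 epithelial cytokine and antimicrobial genes 2 (7.41%) were lower. Median log2 fold changes of the 25 lists ran from -0.98 to 0.34.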

How the data were processed

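RNA of sorted Bmi1-marked crypt cells was measured in 7 libraries, which per the labels' protocols were amplified with SMART-Seq v4 and prepared with Nextera XT for paired-end sequencing. The submitters' processing notes name STAR 2.4.2a, HTSeq 0.6.1, edgeR and the build mm9, without roles. The annotation and strand setting are not given in the sources used here, so overlapping and antisense genes may share reads. The deposited values used are whole-number counts per gene for 37310 genes. The deposited TPM values served only as an alternative. Their column headed as NWD2 replicate 3 matches no sample title and was the 1 per-sample column not used, which left 6 samples. NWD1 replicate 3 has no TPM column, which leaves its diet less certain. Whether the unmatched column belongs to this library was not tested. Both headings name a high-fat diet.

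Counts were tested with edgeR 4.0.16 (R 4.3.3): TMM scaling, filterByExpr on the 2 arms, robust quasi-likelihood fit, 5 residual degrees of freedom, biological coefficient of variation 0.386, and Benjamini-Hochberg adjustment over 14626 genes. NWD2 was tested against NWD1 in a fit with 3 diet terms. A gene was higher or lower in all 5 when each high-fat CPM lay strictly beyond both AIN76A values. Errors after ± are approximate standard errors: the size of the fitted log2 fold change divided by the square root of its quasi-likelihood F statistic. The 95% intervals use the same errors. Named genes were the 12 on each side of smallest unadjusted p among such genes (average log2 CPM 1 or more), excluding clone names and sex-linked genes, together with Bmi1, Lgr5, Epcam and Ptprc. Up to 4 members were added from each list described, those beyond both controls first, and further list members are named from those beyond both controls. The lists held 1283 symbols, of which 1268 were found; 43 lists were counted and 1 of sex-linked genes checked labels. The members and lists were chosen with earlier results of these data known. Scripts were tested on simulated data.

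Alternatives were other scalings, filters and tools (DESeq2 1.42.0, limma 3.58.1 voom, TPM), terms for replicate number, sex and i5 index, and each library left out. Total counts ran from 14034315 to 77959407 per library.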

Additional observations from a re-analysis of the deposited data

Results flagged for a closer look

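Among the 5 high-fat libraries, 76 sets of 5 values (named genes and list levels) were checked for 1 value far from the other 4. The gap divided by the range exceeded 0.71 in 5 sets, and chance flags about 1 in 20. Chd3 stood at 46.4 CPM and Chka at 170 CPM in NWD1 replicate 2, both far above the other high-fat libraries. Fads3 stood at 4.84 CPM in NWD2 replicate 1, above the other 4. The Paneth cell list level of NWD1 replicate 3 was -0.91, below the rest. The Polycomb and chromatin remodelling level of NWD2 replicate 2 was -0.22, the only one of the 5 below the mean of the controls.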

How the results depend on the processing

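The count of genes with an adjusted p under 0.05, 0 in the edgeR fit, was 1 with no filter, 1 among the 4 libraries with the controls' i5 index and 4 with DESeq2. The 308 genes at an unadjusted p under 0.05 became 663 with no filter, 196 with at least 1 CPM in 2 libraries, 208 with TPM, 630 among these 4 and 91 to 718 with 1 library left out. Genes higher in all 5 (362) numbered 236 with at least 1 CPM, 571 with TPM, 2442 within these 4, 925 when high-fat values were set against the control mean, 26 when 2-fold apart and 432 to 2487 with 1 library left out. Genes lower in all 5 (415) numbered 773 with no filter, 1926 within these 4, 2008 against the control mean, 2 when 2-fold apart and 525 to 3357 with 1 library left out. With a library left out, fewer libraries must lie on one side.

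A replicate block gave 458 genes at an unadjusted p under 0.05 and 0 called. The differences between replicates 1 and 2, taken gene by gene, correlated at 0.0945 (AIN76A with NWD1), 0.0636 (AIN76A with NWD2) and 0.214 (NWD1 with NWD2). NWD1 replicate 3 did not enter, and these values cannot show whether replicate numbers mark pairs. Bmi1 turned from 0.18 to -0.061 with the replicate block, -0.027 with an i5 term and -0.026 within these 4, and was -0.11 to 0.53 with 1 library left out. Ptprc (-0.14) turned to 0.15 with an i5 term, 0.030 with a sex term and 0.14 within these 4, and was -0.54 to 0.19 with 1 library left out. With 1 library left out Lgr5 was -0.54 to 1.41 and Epcam -0.078 to 0.88.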

Other observations

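DESeq2 called 4 genes that edgeR did not. Dhtkd1, a mitochondrial dehydrogenase subunit, was at 7.17 and 0.44 CPM in the controls and at most 0.21 CPM in the high-fat libraries (log2 fold change -5.42, DESeq2 adjusted p 0.00187). Tet1, which oxidises methylated cytosine, was at 7.89 CPM in AIN76A replicate 1 and 0.17 to 0.56 CPM in the other 6 libraries (-3.52, DESeq2 adjusted p 0.0335). The immunoglobulin segment Ighv1-18 had 0 counts in 5 of the 7 libraries (DESeq2 adjusted p 0.00187), and the fourth gene was the clone-named AI662270 (0.00363).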
